A study of Homo sapiens with 24 samples.

Results

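Small nuclear RNA (snRNA) genes encode the short nuclear RNAs at the heart of the spliceosome and of a few related particles. They were taken as the records of type snRNA with a symbol starting RNU, RNVU or RN7SK on chromosomes 1 to 22 of GRCh38, which gave 42 of 56080 gene records. The genes of the major spliceosome made up 36 of them, with 21 U1 genes (4 named RNU1 and 17 variant genes named RNVU1), 3 U2, 2 U4, 5 U5 and 5 U6 genes. The minor spliceosome had 4 genes, RNU11, RNU12, RNU4ATAC and RNU6ATAC, and the remaining 2 were RN7SK and RNU7-1. A gene was counted in a library when the library's list held a peak within 500 bases of its record.

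The peaks come from CUT&RUN, in which an antibody tethers a nuclease to chromatin and the DNA released around the bound protein is sequenced, and the study set the binding of the nuclear receptor TR4 (gene NR2C2) beside that of the repressor BCL11A. All 24 libraries were made from 3 edited clones of HUDEP-2, an immortalised human erythroid progenitor line, kept in the same medium with SCF, EPO, dexamethasone and doxycycline and given no other treatment. TR4 is tagged in clone T (FLAG plus MYC), BCL11A in clone B (HA plus MYC) and both proteins in clone TB, so every target library came from cells with at least 1 tagged protein and each genotype is a single clone. TR4-directed libraries used the MYC or the TR4 antibody in clone T or the TR4 antibody in clone TB, BCL11A-directed libraries used the MYC or the HA antibody in clone B or the HA antibody in clone TB, the MYC antibody in clone TB can recover either protein, and IgG gave 1 background library per clone. Each of the 7 target groups had 3 libraries. The labels do not say that these came from separate cultures, so the p-values measure the spread between libraries, which may be technical.

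As background, U1 and U2 recognise the 5′ splice site and the branch point of most introns, and U4, U5 and U6 join them as a preformed particle to build the active major spliceosome. U11, U12, U4atac and U6atac do the same work with U5 on a rare class of introns. The genes have compact promoters of their own, read by RNA polymerase II for most of them and by RNA polymerase III for U6, U6atac and 7SK, and many lie close to the promoter of a protein-coding gene. Regulated splicing is part of red cell maturation, but a peak at a gene measures neither its transcription nor its RNA.

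The deposited lists held 4621 to 31432 peaks in the 21 target libraries and 2036 to 4828 in the 3 IgG libraries, and in each of the 7 groups replicate 3 had the fewest. Read counts were not analysed here, so depth is unknown. The folds below are the authors' own values per peak. Raw folds of different lists are set side by side as description only and were not tested. Comparison of peak strength between libraries rests on the percentile of a peak's fold among all peaks of its library. As a check of the label, all 11 erythroid marker genes had a peak in at least 1 target library (median 13 of 21). Of the 9 markers of other cell types reported here, 4 did (median 0 of 21, with ITGA2B the highest at 14). Among all protein-coding genes 75.5% did (median 9 of 21), so such a peak at a marker gene says little of the cell type. The difference between these medians was not tested.

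Most snRNA genes had a BCL11A-directed peak and fewer had a TR4-directed one. With MYC in clone T, 19 of 42 snRNA genes had one in 2 or 3 of the 3 libraries, as did 15 with the TR4 antibody in clone T and 18 with the TR4 antibody in clone TB. The same count was 31 with MYC in clone B, 38 with HA in clone B, 39 with HA in clone TB and 34 with MYC in clone TB. Over all gene records the shares were 15.3%, 13.8% and 15.1% in those TR4-directed groups, 25.8%, 24.2% and 23.5% in those BCL11A-directed groups and 24.9% with MYC in clone TB, so snRNA genes carried peaks more often than gene records at large in every target group. IgG gave a peak at 1 of 42 snRNA genes, against 5.9% of all gene records (any of the 3 IgG libraries). That peak lay near RNU1-1 in the IgG library of clone B, with its summit 345 bases outside the record and a fold of 6.72.

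Of the 42 genes, 40 (95.2%) had a peak in at least 1 target library, beside 40.2% of all gene records and 75.5% of protein-coding genes. The 2 without were the variant U1 genes RNVU1-17 and RNVU1-1. The variant U1 gene RNVU1-27, RNU6ATAC and the U6 gene RNU6-2 had a peak in all 21. Among protein-coding genes the group counts came to 31.2% to 34.3% in the TR4-directed groups and 50.4% to 55.1% in the BCL11A-directed groups. The snRNA shares of 35.7% to 45.2% (TR4-directed) and 73.8% to 92.9% (BCL11A-directed) were above those too. Single libraries did not all follow. Replicate 3 of MYC in clone T, TR4 in clone T and MYC in clone B had 11.9%, 16.7% and 33.3% of the snRNA genes. Protein-coding genes had 17.6%, 20.9% and 37.4% there. In every other target library the snRNA share was the higher one. Reads of near-identical U1, U2, U4, U5 and U6 copies cannot always be assigned to 1 gene, and the sources used here do not state how such reads were treated.

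**Figure D1:**
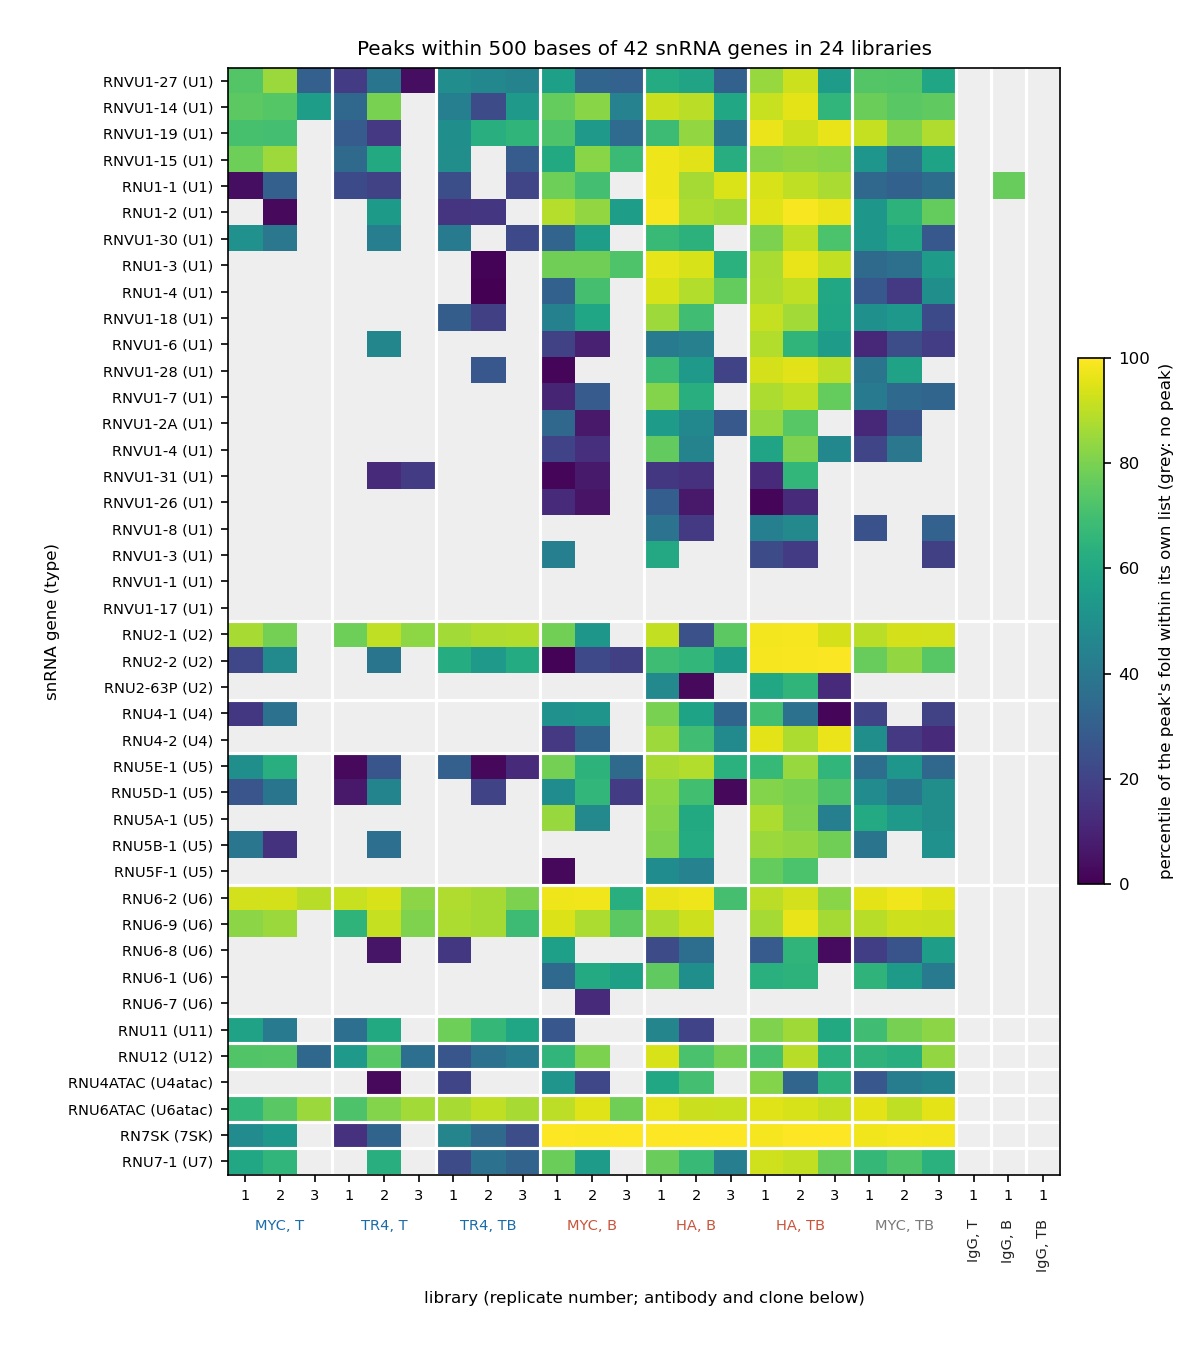
Each row is an snRNA gene with its type and each column a library, ordered by antibody and clone. Colour gives the percentile of the fold of the gene's strongest peak (highest −log10 q) among all peaks of that library, and grey means no peak within 500 bases. TR4-directed columns are mostly grey at the variant U1 genes, RN7SK is bright in the BCL11A-directed and MYC TB columns, and the only coloured IgG cell is RNU1-1 in clone B.

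Library by library the share moved with list length. The 9 TR4-directed libraries had a peak at 11.9% to 54.8% of the snRNA genes (median 45.2%) and the 9 BCL11A-directed libraries at 33.3% to 92.9% (median 85.7%). The lowest value of every antibody and clone group except MYC in clone TB was that of replicate 3. With MYC in clone T, replicates 1, 2 and 3 had 45.2%, 47.6% and 11.9%, on lists of 13205, 14263 and 4621 peaks. With MYC in clone B they had 85.7%, 76.2% and 33.3%, on lists of 29363, 31432 and 13429 peaks. The part of list length in these counts was taken out by construction in a second count, in which each list was held at its top 4621 peaks.

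At equal list length the snRNA genes stood out mainly with the HA antibody. HA in clone TB had a peak at 54.0 ± 3.64% of the snRNA genes (SD, n = 3) and HA in clone B at 30.95 ± 8.59% (SD, n = 3). MYC in clone B, directed at the same protein, had 12.7 ± 1.38%, which lay within the range of the TR4-directed groups. Those groups had 17.5 ± 4.96% with MYC in clone T, 12.7 ± 1.38% with the TR4 antibody in clone T and 16.7 ± 6.30% with the TR4 antibody in clone TB (SD, n = 3 each). Over all gene records the libraries had 7.81% to 8.65% in the TR4-directed set and 7.37% to 8.20% in the BCL11A-directed set, so the same number of peaks fell at about the same share of genes in both. No difference between these groups was tested. HA in clone TB and HA in clone B differ in the clone, and each genotype is 1 clone. The share of protein-coding genes at equal length is known only for replicate 3 of MYC in clone T, whose whole list is 4621 peaks. It was 17.6%, above the 11.9% of the snRNA genes in that library. The non-HA groups are thus not shown to exceed protein-coding genes at this length.

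**Figure D2:**
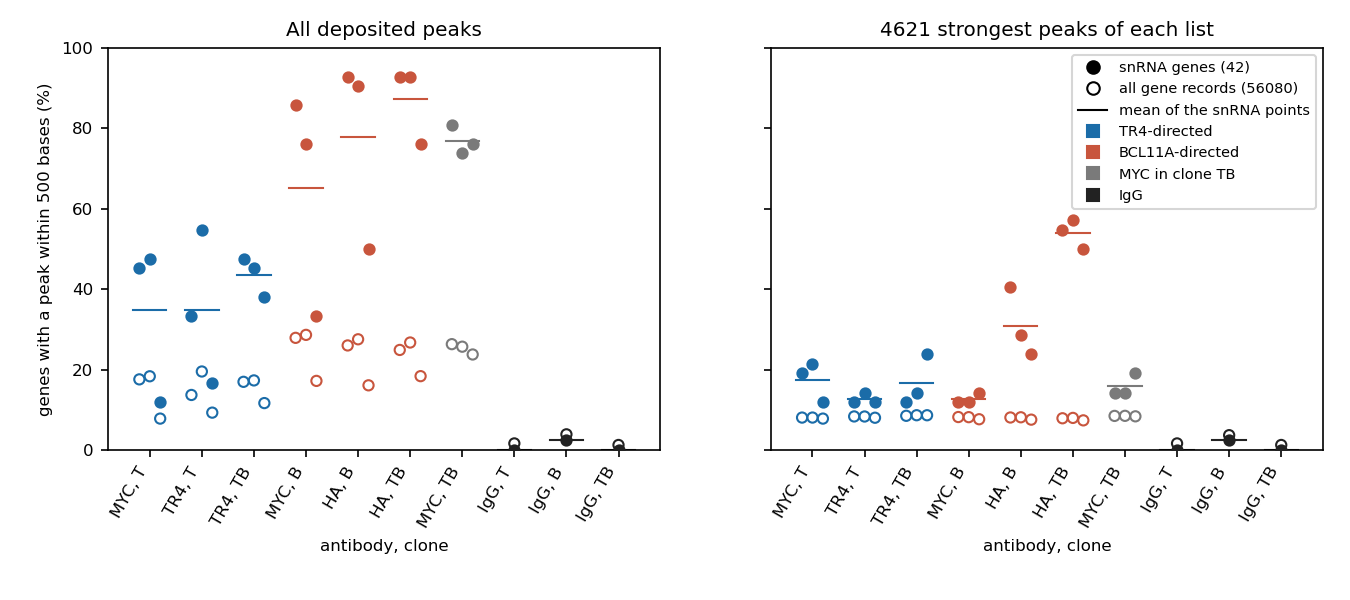
Points give, per library, the percentage of genes with a peak within 500 bases, filled for the 42 snRNA genes and open for all 56080 gene records, and lines are means of the filled points. With all peaks the BCL11A-directed groups are higher. With 4621 peaks per list the HA groups (23.8% to 57.1%) stand above MYC in clone B and the TR4-directed groups (11.9% to 23.8%), and replicate 3 of HA in clone B and of TR4 in clone TB share the value 23.8%.

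Per gene, the number of libraries with a peak was compared between the 9 TR4-directed and the 9 BCL11A-directed libraries with Fisher's exact test (two-sided), adjusted by Benjamini-Hochberg over 15749 gene records. No snRNA gene passed toward TR4, and 9 of 39 tested passed toward BCL11A, or 23.1%, beside 0.971% and 17.1% of all records tested. At an unadjusted p under 0.05 the exact test counted 0 snRNA genes toward TR4 and 15 toward BCL11A. Here and below, the share of all records at that unadjusted threshold was not counted, so such counts have no background. At the adjusted threshold the snRNA share toward BCL11A, 23.1% beside 17.1%, was not far above that of genes at large. The median difference, TR4-directed minus BCL11A-directed, was −4 libraries over the 39 snRNA genes and −2 over all records tested. By counts alone, 33 of 42 snRNA genes had more BCL11A-directed libraries, 7 had equal numbers and 2 had more TR4-directed libraries, namely RNU12 with 9 TR4-directed against 8 BCL11A-directed libraries and RNU11 with 7 against 6. No TR4-directed peak was found at 14 of 42 genes, and 12 of those had a BCL11A-directed peak. The test takes the 9 libraries of a set as separate, although they share clones and antibodies. Without the MYC libraries (6 against 6) 2 snRNA genes passed toward BCL11A, RNU4-2 and RNU4-1, beside 0.295% of all records tested toward TR4 and 4.31% toward BCL11A. With 1 library left out at a time 9 to 14 snRNA genes passed toward BCL11A, the 14 without replicate 3 of MYC in clone B. Records at large then numbered 2731 to 3420 toward BCL11A, against 2699 with all 18 libraries. The share of records tested is not given for the single runs, so the 14 has no background of its own. Which genes passed changed with the definition. Of the 9 genes, 2 kept the call when a peak had to overlap the record (RNVU1-4 and RNVU1-7), 2 at equal list length (RNU1-3 and RNU1-4) and 1 without the MYC libraries (RNU4-2), so each of the 9 lost it under at least 1 of these settings.

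**Figure D3:**
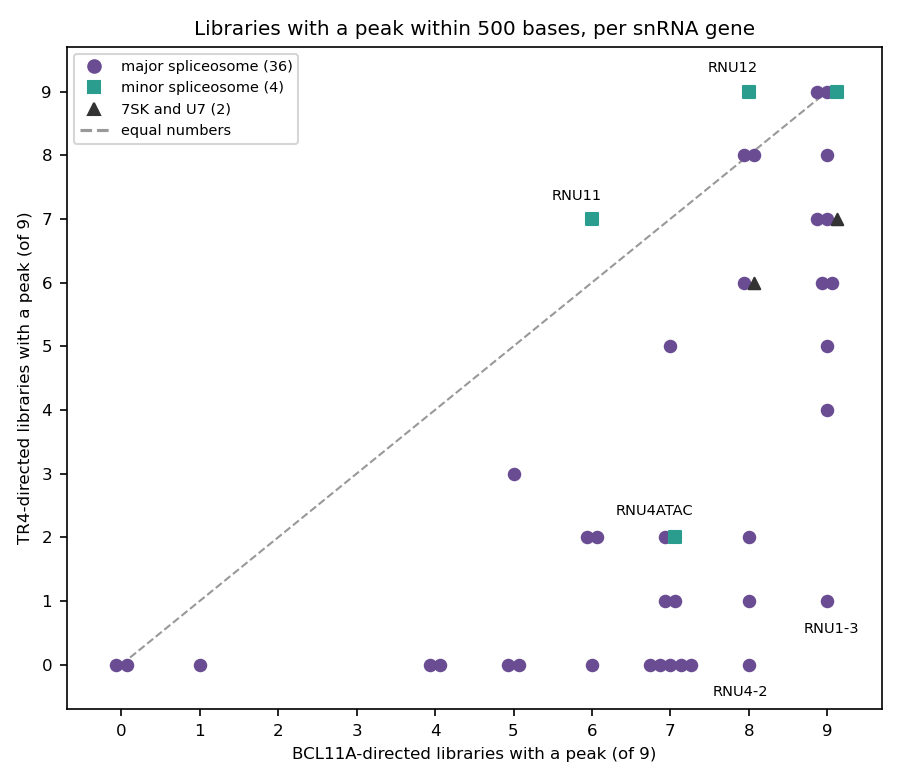
Each point is an snRNA gene, placed by the number of BCL11A-directed libraries (x axis) and TR4-directed libraries (y axis) with a peak within 500 bases, with points at the same place spread sideways. RNU12 and RNU11 are the 2 genes above the dashed line of equal numbers, and 14 genes lie at 0 TR4-directed libraries.

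The major spliceosome held all 9 genes that passed. Of its 36 genes, 9 had a peak in at least 2 of 3 libraries in every TR4-directed group and 26 in every BCL11A-directed group. The median gene had 1.5 TR4-directed libraries against 7 BCL11A-directed libraries. In the minor spliceosome, 3 of 4 genes met the first condition and 3 of 4 the second, with medians of 8 TR4-directed against 7.5 BCL11A-directed libraries, and none passed the test. With 4 genes on 1 side, and with genes that are no replicates of a condition, the difference between the spliceosomes is a description. By polymerase, 9 of 35 polymerase II genes and 4 of 7 polymerase III genes had peaks in every TR4-directed group, against 26 of 35 and 5 of 7 in every BCL11A-directed group.

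The U1 genes, whose RNA pairs with the 5′ splice site, gave 6 of the 9 calls. RNU1-3 (chr1:16666785-16666948) was marked in 1 of 9 TR4-directed against 9 of 9 BCL11A-directed libraries, with an adjusted p of 0.0064 by Fisher's exact test, and RNU1-4 (chr1:16740516-16740679) in 1 against 8 (adjusted p = 0.026 by the same exact test). At RNU1-3 the single TR4-directed fold was 3.80, and the BCL11A-directed folds ran from 8.98 to 27.8. As fold percentiles these were 1.07 and 63.8 to 96.6. The neighbours RNU1-1 and RNU1-2 did not pass, with 6 against 8 and 4 against 9 libraries. RNU1-1, RNU1-2, RNU1-3 and RNU1-4 encode the same U1 RNA, and the part of read assignment in this split was not tested.

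Among the 17 variant U1 genes, RNVU1-4, RNVU1-2A and RNVU1-7 passed with 0 of 9 TR4-directed against 7 of 9 BCL11A-directed libraries each, at an adjusted p of 0.02 by Fisher's exact test, and RNVU1-26 with 0 against 6 (exact test, adjusted p = 0.04997). The call at RNVU1-26 lay at the threshold and was lost within 1000 bases or with the summit in the window (adjusted p = 0.0503 in each exact test), and also at −log10 q of at least 5, at equal list length and without the MYC libraries. A group of 4 variant genes, chosen after their values were seen, stood apart. RNVU1-19, RNVU1-15, RNVU1-14 and RNVU1-27 are those within 9 kb of an NBPF gene, a family expanded in primates, and lie 8590 to 8650 bases from it. All 4 of them had peaks in every TR4-directed group, against 0 of the other 13 variant genes. Their TR4-directed libraries numbered 6 to 9, and those of the other 13 numbered 0 to 5, with 8 genes at 0. In every BCL11A-directed group 4 of 4 and 8 of 13 had peaks. The 4 were chosen for this pattern, so the difference from the other 13 was not tested.

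At these 4 genes the TR4-directed and BCL11A-directed peaks differed in whether they reached the record. No TR4-directed peak overlapped the record of any of them, while a BCL11A-directed peak overlapped the record in 8 of 9 libraries at RNVU1-19 and RNVU1-27 and in 9 of 9 at RNVU1-14 and RNVU1-15. At RNVU1-27 (chr1:148522601-148522765) the TR4-directed summits lay 352 to 438 bases above the first base of the record, while the BCL11A-directed summits on that side lay at 222 to 330 and 5 libraries had a further one at −278 to −266. At RNVU1-15 the TR4-directed summits lay at 411 to 424, and the BCL11A-directed summits above or inside the record at 161 to 266. At RNVU1-14 the ranges met, with TR4-directed summits at 354 to 431 and BCL11A-directed ones up to 357. At RNVU1-19 most TR4-directed summits lay below the record, at −268 to −193, with the BCL11A-directed ones on that side at −214 to −51, so the ranges overlapped there too. When only a peak on the record itself counted, 1.63% of all records tested passed the exact test toward TR4 and 20.4% toward BCL11A. All 4 genes were among the 10 snRNA genes that passed toward BCL11A there. RNVU1-14 and RNVU1-15 had 0 against 9 libraries, and RNVU1-19 and RNVU1-27 had 0 against 8. These calls restate the overlap described above at genes chosen after their values were seen, so they are no separate support.

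**Figure D4:**
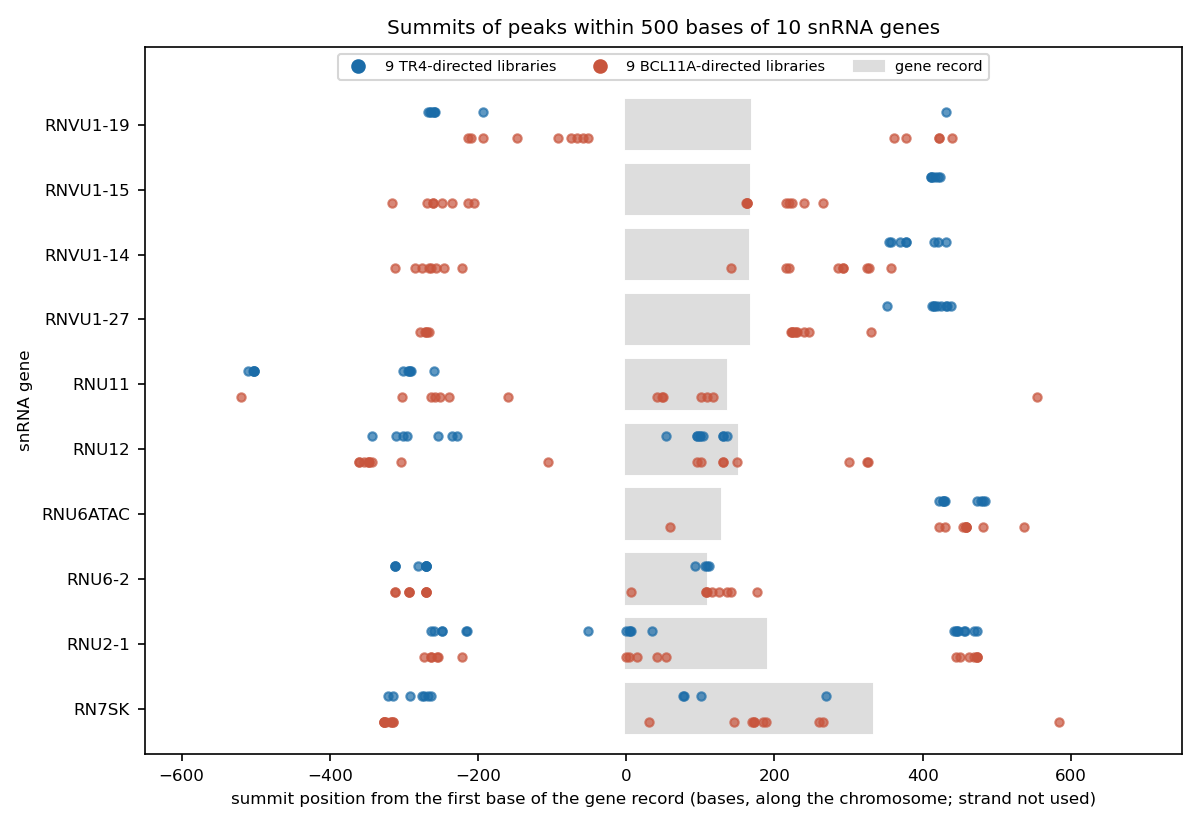
Dots are summits of the peaks within 500 bases of 10 snRNA genes, blue (upper) for the 9 TR4-directed and red (lower) for the 9 BCL11A-directed libraries, by distance in bases from the first base of the record, which is the grey box. At RNVU1-15, RNVU1-27 and RNU11 the BCL11A-directed dots include positions nearer to or inside the record, and at RNU6ATAC and RNU2-1 both sets lie at about the same places. At RNU6-2 both sets share the place below the record, and more BCL11A-directed dots lie just above it.

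Over all 42 genes most summits lay beside the record, not in it. Of 187 TR4-directed peaks 16.04% had their summit inside the record, against 21.17% of 515 BCL11A-directed peaks. The TR4-directed summits outside lay a median of 264 bases from the record and the BCL11A-directed ones 239 bases. A TR4-directed peak overlapped the record in 12.5% to 28.6% of cases per library (median 20.0%), and a BCL11A-directed peak in 26.7% to 44.2% (median 38.3%). At snRNA genes the library medians of peak width were 105.5 to 210.5 bases (median 175) in BCL11A-directed and 117 to 153 (median 130.5) in TR4-directed libraries. Medians above 153 came only with the HA antibody, which had 196, 175 and 148 bases in clone B and 210.5, 200 and 206.5 in clone TB. MYC in clone B, directed at the same protein, had 146, 141 and 105.5. Over all peaks of a list the medians were 132 to 158 bases in BCL11A-directed and 132 to 147 in TR4-directed libraries. The part of peak width in the overlap was not tested.

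The U2 gene RNU2-1, whose RNA pairs with the branch point, was shared. TR4-directed peaks lay there in 8 of 9 libraries and BCL11A-directed peaks in 8 of 9, with folds of 16.2 to 30.1 (median 22.8) and 6.51 to 35.4 (median 15.8). In fold percentile it stood at 78.0 to 90.5 in the TR4-directed libraries and at 24.8 to 98.5 in the BCL11A-directed libraries. The only libraries with no RNU2-1 peak were replicate 3 of MYC in clone T and replicate 3 of MYC in clone B. RNU2-2, a further U2 gene, inside the record of WDR74, had 6 TR4-directed against 9 BCL11A-directed libraries. Its fold percentile was 98.6, 99.0 and 99.4 with HA in clone TB, against 68.9, 66.1 and 54.8 with HA in clone B and 1.085, 21.96 and 18.78 with MYC in clone B. The 3 libraries of HA in clone TB lay above all others at this gene. Next came MYC in clone TB at 77.0, 83.8 and 74.1, and the highest TR4-directed percentile was 62.1. RNU2-63P had 0 against 5 libraries and did not pass.

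Both U4 genes, whose RNA pairs with U6 until the spliceosome is activated, leaned to BCL11A. RNU4-2 (chr12:120291759-120291903) had 0 of 9 TR4-directed against 8 of 9 BCL11A-directed libraries, which passed at an adjusted p of 0.0064 by Fisher's exact test. The call was lost at equal list length (adjusted p = 0.1516) and when a peak had to overlap the record (adjusted p = 0.1805, both by the exact test). The BCL11A-directed folds were 16.7, 12.9 and 7.39 with HA in clone B, 25.5, 16.9 and 21.5 with HA in clone TB and 5.42 and 6.98 with MYC in clone B, where replicate 3 had no peak. RNU4-1, beside it, had 2 against 8 libraries and did not pass. In the 6 HA libraries a summit fell in a promoter window of SIRT4, a mitochondrial sirtuin gene whose record overlaps RNU4-2. The summits of MYC in clone B lay outside the window, at −154 and −249 from the first base of RNU4-2, and those of MYC in clone TB at −275 to −31. No TR4-directed library could have a summit in the window, since none had a peak within 500 bases. Whether the HA summits belong to the U4 promoter or to that of SIRT4 cannot be told apart. The SIRT4 window (RefSeq, GRCh38.p14, chr12:120291939-120292238, plus strand) runs 250 bases before to 50 bases after the start, 5′ to 3′. It is shown because it holds the HA summits at the U4 gene with no TR4-directed library. Capitals mark the stretch between the lowest and the highest summit, here 35 bases.
SIRT4 promoter window at RNU4-2: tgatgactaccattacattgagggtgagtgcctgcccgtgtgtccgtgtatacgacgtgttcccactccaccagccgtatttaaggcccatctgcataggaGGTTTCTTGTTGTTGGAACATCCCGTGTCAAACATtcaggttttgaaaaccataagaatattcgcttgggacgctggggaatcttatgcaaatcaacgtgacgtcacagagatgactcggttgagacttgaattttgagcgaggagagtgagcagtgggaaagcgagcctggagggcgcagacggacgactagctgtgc

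U5, which holds the exons together, and U6, which forms the catalytic core, differed from gene to gene. RNU5A-1 passed with 0 against 7 libraries (Fisher's exact test, adjusted p = 0.02), while RNU5E-1 (7 against 9), RNU5D-1 (5 against 9), RNU5B-1 (3 against 5) and RNU5F-1 (0 against 5) did not. Of the U6 genes RNU6-1 passed, also with 0 against 7 and the same adjusted p in the exact test, and RNU6-8 (2 against 6) did not. Both calls, at RNU5A-1 and RNU6-1, were lost with overlap of the record, at equal list length and without the MYC libraries (adjusted p = 0.1104 and 0.252 in the last of these exact tests). RNU6-7 had a peak in 1 BCL11A-directed library and was not tested. RNU6-2 and RNU6-9 had peaks in nearly every library of both sets.

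RNU6-2 (chr19:1021522-1021628) had the highest TR4-directed fold of all 42 genes. Its folds were 16.3 to 42.6 (median 26.7) in 9 TR4-directed libraries and 8.82 to 38.9 (median 21.2) in 9 BCL11A-directed libraries. The fold percentiles were 80.5 to 94.0 and 62.6 to 97.7 in those sets, so the ranges overlapped. Every library of both sets had a summit 270 to 312 bases below the record. A peak overlapped the record itself in 4 TR4-directed and 9 BCL11A-directed libraries. Summits above the record lay at 109 to 111 in 2 TR4-directed libraries and at 108 to 176 in 8 BCL11A-directed libraries, from its first base. RNU6-9 (chr19:893484-893590) had 8 against 8 libraries, with fold percentiles of 65.2 to 91.1 and 74.7 to 96.8. All of its summits lay below the record, at −273 to −242 in TR4-directed and −276 to −237 in BCL11A-directed libraries, and no peak overlapped it.

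Both U6 genes lie close to the start of a protein-coding gene, RNU6-2 at 399 bases from the record of TMEM259 and RNU6-9 at 297 bases from that of MED16, a Mediator subunit. The summits fell in the promoter windows of those genes in 21 of 21 target libraries at RNU6-2 and in 19 at RNU6-9. In each case 11 libraries had their summit on 1 and the same base. Whether the peaks belong to the U6 promoter or to that of the coding gene cannot be told apart. The windows (RefSeq, GRCh38.p14, minus strand, chr19:1021074-1021373 for TMEM259 and chr19:893138-893437 for MED16, 5′ to 3′) are shown because they hold the summits shared by both proteins, with the stretch between the lowest and highest summit (52 and 40 bases) in capitals.
TMEM259 promoter window at RNU6-2: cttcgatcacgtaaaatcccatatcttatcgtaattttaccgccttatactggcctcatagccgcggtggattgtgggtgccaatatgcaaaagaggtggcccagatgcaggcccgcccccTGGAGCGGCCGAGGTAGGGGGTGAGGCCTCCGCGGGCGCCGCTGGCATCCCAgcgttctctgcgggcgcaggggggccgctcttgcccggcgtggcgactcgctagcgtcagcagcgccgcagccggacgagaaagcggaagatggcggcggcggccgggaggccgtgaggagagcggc
MED16 promoter window at RNU6-9: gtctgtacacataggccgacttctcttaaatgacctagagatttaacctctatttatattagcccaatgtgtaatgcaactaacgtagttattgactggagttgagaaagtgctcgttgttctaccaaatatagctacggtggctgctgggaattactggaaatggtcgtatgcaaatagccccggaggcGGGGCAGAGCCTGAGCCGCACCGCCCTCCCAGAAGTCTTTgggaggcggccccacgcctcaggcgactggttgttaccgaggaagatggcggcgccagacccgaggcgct

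**Figure D5:**
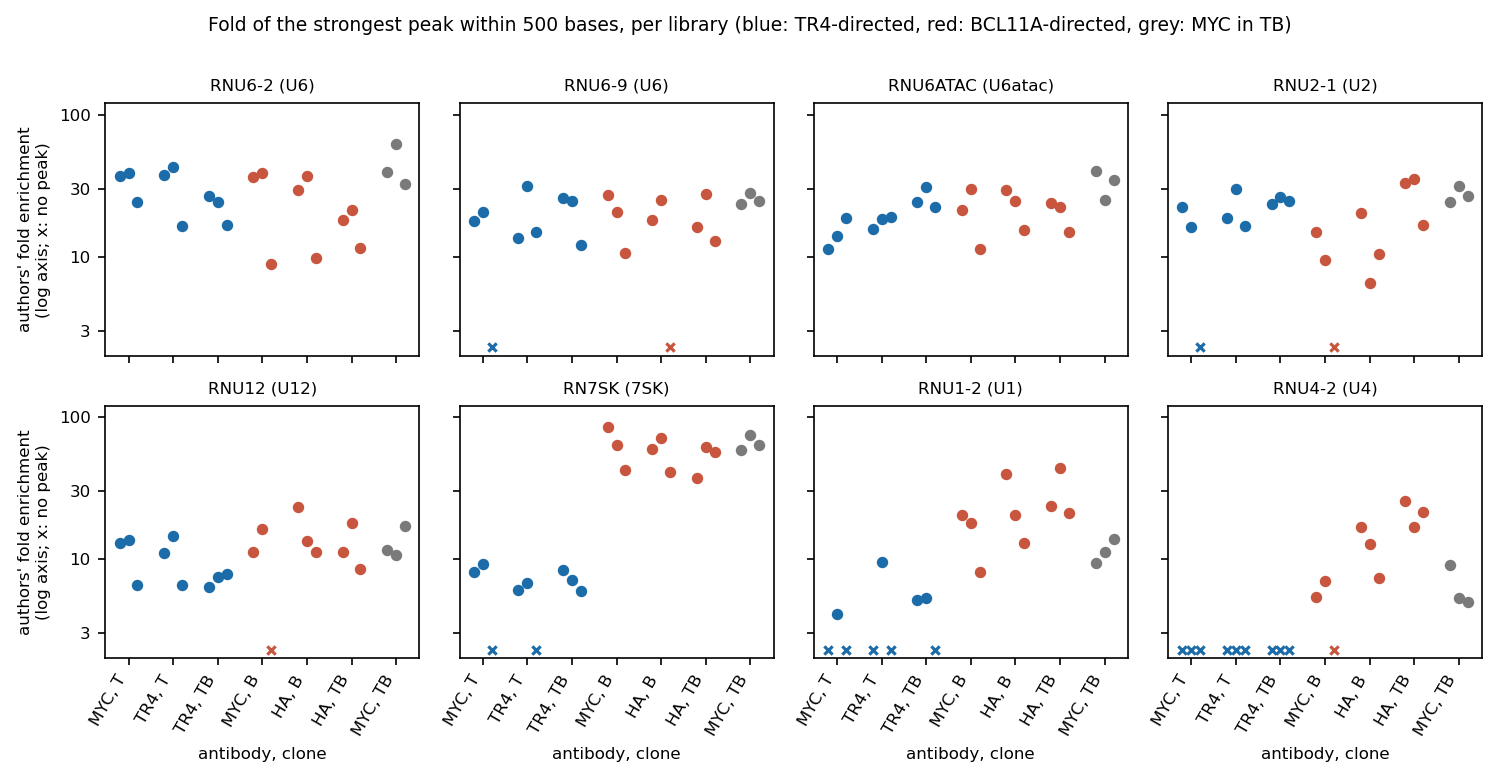
Points give the authors' fold of the strongest peak within 500 bases of 8 snRNA genes in each target library (log axis, crosses for no peak), by antibody and clone. RNU6-2, RNU6-9, RNU6ATAC, RNU2-1 and RNU12 have overlapping values for both targets, RN7SK has 5.99 to 9.18 in TR4-directed and 36.9 to 84.9 in BCL11A-directed libraries, and RNU4-2 has crosses in all 9 TR4-directed libraries. Folds of different lists are shown side by side and were not tested.

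In the minor spliceosome, RNU6ATAC (chr9:134164439-134164564), the counterpart of U6, was the strongest. It had a peak in 9 of 9 libraries of each set, with folds of 11.3 to 30.8 (median 18.8) in TR4-directed and 11.3 to 29.9 (median 22.5) in BCL11A-directed libraries. The TR4-directed fold percentiles were 66.2 to 90.3 and the BCL11A-directed ones 78.5 to 96.8. The strongest summits of both sets lay 422 to 537 bases above the first base of the record, well outside its 126 bases. No coding gene lay within 500 bases, the nearest being WDR5 at 4471 bases.

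RNU12 (chr22:42615244-42615393), the counterpart of U2, had a peak overlapping the record in 9 TR4-directed and 8 BCL11A-directed libraries. The TR4-directed folds were 6.31 to 14.4 (median 7.79) and the BCL11A-directed folds 8.51 to 23.4 (median 12.4), and the percentiles overlapped at 26.8 to 74.0 and 64.0 to 93.8. It was the 1 member of the 42 with a TR4-directed peak on its record in all 9 libraries. A second summit lay below the record in 7 TR4-directed and 8 BCL11A-directed libraries, inside the promoter window of POLDIP3, an mRNA export factor. The POLDIP3 window (RefSeq, GRCh38.p14, chr22:42614834-42615133, minus strand, 5′ to 3′) held summits of 18 target libraries spread over 134 bases, in capitals, wider than in the U6 windows.
POLDIP3 promoter window at RNU12: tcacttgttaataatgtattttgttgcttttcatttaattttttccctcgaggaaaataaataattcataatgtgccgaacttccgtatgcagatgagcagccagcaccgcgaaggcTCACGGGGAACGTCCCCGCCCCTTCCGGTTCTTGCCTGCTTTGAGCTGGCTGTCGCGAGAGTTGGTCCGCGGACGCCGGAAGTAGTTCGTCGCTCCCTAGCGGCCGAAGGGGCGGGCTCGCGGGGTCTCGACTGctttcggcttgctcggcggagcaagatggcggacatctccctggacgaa

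RNU11 (chr1:28648600-28648734), which stands in for U1, and RNU4ATAC, which stands in for U4, split the minor spliceosome. RNU11 had 7 TR4-directed against 6 BCL11A-directed libraries, with fold percentiles of 36.7 to 78.0 against 20.1 to 85.8. Its TR4-directed summits all lay below the record, at −511 to −260, on the side of TAF12, whose record is 331 bases away. All 6 of those BCL11A-directed libraries had a peak on the record itself and no TR4-directed library did, and with only such peaks counted RNU11 passed toward BCL11A (Fisher's exact test, adjusted p = 0.0411). The direction at RNU11 thus turned with the window. RNU4ATAC, inside the record of CLASP1, had 2 against 7 libraries and did not pass.

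RN7SK (chr6:52995620-52995951), the RNA that holds the elongation factor P-TEFb inactive, showed a gap in peak strength rather than in counts. The counts, 7 TR4-directed against 9 BCL11A-directed libraries, gave an adjusted p of 0.793 by Fisher's exact test and so did not pass. The TR4-directed folds were 8.14 and 9.18 with MYC in clone T, 6.08 and 6.78 with the TR4 antibody in clone T and 8.41, 7.17 and 5.99 with the TR4 antibody in clone TB. The BCL11A-directed folds were 84.9, 63.2 and 42.7 with MYC in clone B, 59.9, 70.9 and 40.9 with HA in clone B and 36.9, 61.4 and 56.4 with HA in clone TB. Within their lists the TR4-directed peaks stood at the 14.3 to 53.5 percentile of fold and the BCL11A-directed peaks at the 98.8 to 99.9 percentile, so the sets did not overlap. With MYC in clone TB the percentile was 97.8 to 98.5.

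Limited to the 4621 strongest peaks of each list, RN7SK had 0 of 9 TR4-directed against 9 of 9 BCL11A-directed libraries, an adjusted p of 0.000357 by Fisher's exact test. Under that count 5 of 19 snRNA genes tested passed toward BCL11A, RN7SK, RNU1-1, RNU1-2, RNU1-3 and RNU1-4, and 0 toward TR4, also at an unadjusted p under 0.05 in the exact test. RNU6-2 had 9 against 9 libraries, RNU6-9 8 against 8, RNU6ATAC 8 against 9, RNU2-1 8 against 5 and RNU12 7 against 4. Over all gene records the balance was different, with 1494 of 7421 tested (20.1%) toward TR4 and 1207 (16.3%) toward BCL11A.

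The strong 7SK summits lay 315 to 327 bases below the record in the BCL11A-directed libraries, in the promoter window of GSTA4, a glutathione transferase gene whose record is 336 bases away. TR4-directed summits on that side lay at −321 to −264. All 9 BCL11A-directed libraries and 4 TR4-directed libraries had a further peak on the 7SK record. The GSTA4 window (RefSeq, GRCh38.p14, chr6:52995235-52995534, minus strand, 5′ to 3′) is shown because it holds summits of 19 target libraries at the gene whose fold percentiles did not overlap despite peaks in most libraries of both sets, with the 64 bases between the outermost summits in capitals.
GSTA4 promoter window at RN7SK: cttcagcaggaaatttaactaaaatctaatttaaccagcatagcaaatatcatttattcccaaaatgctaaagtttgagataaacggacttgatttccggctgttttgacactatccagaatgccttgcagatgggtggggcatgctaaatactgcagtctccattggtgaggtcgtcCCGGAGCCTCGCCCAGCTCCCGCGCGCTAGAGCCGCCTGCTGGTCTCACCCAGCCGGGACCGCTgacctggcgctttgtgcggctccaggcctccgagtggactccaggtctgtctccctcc

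RNU7-1 (chr12:6943816-6943878) encodes U7, which guides the 3′ end cleavage of histone messages, and lies within the record of C12orf57. It had 6 TR4-directed against 8 BCL11A-directed libraries and did not pass. The C12orf57 promoter window (RefSeq, GRCh38.p14, chr12:6943772-6944071, plus strand, 5′ to 3′) is shown because it contains a whole snRNA record, bases 45 to 107 of the window. The summits inside the window, of 7 target libraries and spread over the 65 bases in capitals, lay beyond the U7 record. On that side of U7 the summits lay at 178 to 333 in TR4-directed and 179 to 337 in BCL11A-directed libraries.
C12orf57 promoter window at RNU7-1: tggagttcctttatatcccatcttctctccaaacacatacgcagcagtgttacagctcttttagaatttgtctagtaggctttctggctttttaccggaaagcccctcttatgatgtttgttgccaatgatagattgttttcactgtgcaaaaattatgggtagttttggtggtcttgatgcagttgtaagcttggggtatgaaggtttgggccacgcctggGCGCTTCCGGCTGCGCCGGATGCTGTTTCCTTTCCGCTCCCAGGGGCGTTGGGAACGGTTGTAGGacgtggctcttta

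The 6 windows were searched on both strands for the nuclear receptor half-site AGGTCA, which reads TGACCT on the other strand, the BCL11A motif TGACCA, the octamer ATGCAAAT of snRNA promoters and the ETS site CCGGAAGT. AGGTCA and TGACCA overlap in part, since TGACCT and TGACCA differ in their last letter. These letters occur in 13.8%, 10.7%, 1.77% and 4.14% of 35116 promoter windows of the same length. The MED16 window held TGACCT (chr19:893402-893407) and the octamer (chr19:893260-893267), 155 and 13 bases from the summit stretch. The GSTA4 window held TGACCT (chr6:52995288-52995293) at the edge of the summit stretch, the SIRT4 window held the octamer (chr12:120292125-120292132) and the POLDIP3 window held CCGGAAGT (chr22:42614934-42614941) within the stretch. None of the 6 windows held TGACCA, and the TMEM259 and C12orf57 windows held no searched motif. A match is only a match of letters.

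Nearness of a coding gene went with the TR4-directed count. The 11 snRNA genes within 500 bases of a coding record had a median of 6 TR4-directed against 8 BCL11A-directed libraries, and the other 31 a median of 1 against 7. In every TR4-directed group peaks were found at 5 of 11 and 8 of 31 of these genes, and in every BCL11A-directed group at 9 of 11 and 22 of 31. The part of the coding promoters in the snRNA counts was not tested.

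Among other snRNA-related records, 28 named SNAR had a peak in any target library in 89.3% of cases, against 95.2% of the 42 genes and 40.2% of all gene records. A peak in at least 2 of 3 libraries was found at 22 of the 28 with the TR4 antibody in clone TB, 4 with it in clone T, 19 with HA in clone TB and 10 with HA in clone B. These were 78.6%, 14.3%, 67.9% and 35.7% of the SNAR records, beside 15.1%, 13.8%, 23.5% and 24.2% of all gene records. Many SNAR records are near-identical copies, among which reads cannot always be assigned. The 76 further snRNA records named only by a LOC symbol had a peak in at least 2 of 3 libraries at 12 to 14 records (15.8% to 18.4%) in the TR4-directed groups and at 15 to 17 (19.7% to 22.4%) in the BCL11A-directed groups. Over all gene records the shares were 13.8% to 15.3% and 23.5% to 25.8%, so the LOC records lay near those of gene records at large. Of 1999 pseudogene records with RNU or RN7SK symbols, 65 had a peak in any target library, or 3.25%, beside 40.2% of all gene records. Among 158 tested tRNA genes, also read by polymerase III, 51 (32.3%) passed toward BCL11A and 1 toward TR4. Of all records tested 17.1% and 0.971% did.

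The protein-coding genes around snRNA synthesis and function were taken from 8 lists with 113 genes, of which 111 lay on the chromosomes used and 102 were tested. Toward TR4 2 of 102 passed and toward BCL11A 4 of 102, below the 17.1% of all records for BCL11A. The genes toward TR4 were SNRPF, a ring subunit of the Sm core, and CLNS1A, a chaperone of Sm assembly, each with 9 of 9 TR4-directed against 3 of 9 BCL11A-directed libraries, at an adjusted p of 0.04997 by Fisher's exact test. Both calls lay at the threshold and were lost within 1000 bases or with the summit in the window (adjusted p = 0.0503 in each exact test), and with protein-coding and snRNA genes only. Toward BCL11A were SNRPD1, another Sm subunit, with 1 against 8 libraries (exact test, adjusted p = 0.026), the Integrator subunit INTS15 with the same counts, ARMC7 of the minor spliceosome with 1 against 9 (adjusted p = 0.0064 in the exact test) and LSM11 of the U7 particle with 0 against 7 (adjusted p = 0.02 in the exact test). The Sm core thus had a member in each direction. Without the MYC libraries 0 of these genes passed in either direction in Fisher's exact test, where an unadjusted p under 0.05 was found for 2 toward TR4 and 4 toward BCL11A, and at equal list length 18 of 61 tested passed toward TR4 and 3 toward BCL11A, beside the 20.1% and 16.3% of all records under that setting.

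By list, 0 of 10 snRNA promoter factors passed in either direction, SNAPC4, the largest subunit of the snRNA activating complex, having 4 TR4-directed against 9 BCL11A-directed libraries. The other lists had 1 of 14 Integrator genes toward BCL11A, 1 of 13 Sm and LSm genes each way, 0 of 22 major snRNP protein genes, 1 of 11 minor spliceosome protein genes toward BCL11A, 0 of 9 genes of the 7SK particle, 1 of 19 maturation genes toward TR4 and 1 of 4 U7 and histone 3′ end genes toward BCL11A. SLBP, the histone stem-loop binding protein, had 9 of 9 libraries in each set. At an unadjusted p under 0.05 in the exact test, 1 snRNA promoter factor, 1 major snRNP protein gene and 0 genes of the 7SK particle leaned toward BCL11A, and 0 of those lists toward TR4. A peak in all 9 libraries of both sets was found at 24 of the 111 genes, and an IgG peak at 5.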

How the data were processed

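CUT&RUN peak lists of 24 libraries (21 target, 3 IgG) were used. The submitters' processing notes name build GRCh38 and the tools MACS2 2.1.4, Bowtie2, Trimmomatic, SAMtools and Picard, without roles or settings. The authors deposited 1 list per library, with a fold enrichment (a linear ratio), a −log10 q-value and a summit offset per peak. No read counts were analysed, so depth is unknown and no interval is given.

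Gene records came from RefSeq (GRCh38.p14, no strand); 789 unplaced records were left out. Fisher's exact test (two-sided) was run for a gene when at least 4 of 18 libraries had a peak within 500 bases, with Benjamini-Hochberg adjustment at 0.05. The smallest p possible is 4.114e-05 for 9 libraries against 9, and 3 against 3 cannot go below 0.1. The strongest peak of a gene is that with the highest −log10 q. Promoter windows hold 250 bases before and 50 after a start; 0 of 42 snRNA genes matched one, so those of coding neighbours are shown. Python 3.11.15 with scipy 1.17.1 was used, and the test was tested on simulated data.

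The text names snRNA genes with a peak in at least 9 of 21 target libraries, all minor spliceosome genes, RN7SK, the leading gene of each type, genes with an IgG peak and up to 3 genes per pathway list by lowest p; others named were chosen after their values were seen. A marker of another cell type is not reported here. Members, lists and rules were chosen with earlier results of these data known. Alternatives changed the window, the −log10 q minimum, list length, genes tested and libraries used.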

Additional observations from a re-analysis of the deposited data

Results flagged for a closer look

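Of 20 sets of 9 libraries looked at, 4 held a library far from the others, each in the percentile of the fold at an snRNA gene. The rule flags about 1 in 20 by chance when sets are separate. Here the sets share libraries and percentiles end at 100, so the count cannot be set against that rate. All 4 were low values among BCL11A-directed libraries. Replicate 3 of MYC in clone B stood at 34.38 at RNU5E-1, a U5 gene, with the next library at 63.98 and the highest at 88.6. The same library stood at 56.08 at RNU1-2, a U1 gene, with the next at 83.93 and the highest at 99.18. It stood at 78.46 at RNU6ATAC of the minor spliceosome, with the next at 89.9 and the highest at 96.83. This library also had the shortest list of its group, and the part of that in these values was not tested. At RN7SK, replicate 1 of HA in clone TB stood at 98.8, with the next at 99.59 and the highest at 99.93.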

How the results depend on the processing

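No snRNA gene passed toward TR4 under any of the settings run, which included each library left out in turn. The counts of genes at large are given toward TR4 and then toward BCL11A, with 153 and 2699 as the values reported. They were 244 and 2860 at −log10 q of at least 5, 100 and 2001 within 1000 bases, 66 and 1249 with protein-coding and snRNA genes only, 1494 and 1207 at equal list length, and 41 and 599 with the MYC libraries left out. With replicates 1 and 2 only, a setting chosen after seeing the data, they were 61 and 1209. The 9 snRNA genes toward BCL11A became 5 at equal list length and 2 without the MYC libraries, and 10 when a peak had to overlap the record, where RNU11 reversed to −6 libraries. Of the 9, those settings shared 2, 1 and 2 genes. The pathway genes toward TR4 were 0 instead of 2 within 1000 bases, with the summit in the window, with every gene with a peak tested, with protein-coding and snRNA genes only, with the MYC libraries left out, with replicates 1 and 2 only and with the replicate block. They were 4 at the stricter q or with overlap and 18 at equal list length. Those toward BCL11A, 4 as reported, were 7 at the stricter q or with overlap, 0 without the MYC libraries and 2 with replicates 1 and 2 only. The replicate block took the replicate number as a stratum, left 9 snRNA genes toward BCL11A and changed no call of a single snRNA gene. Same-numbered libraries of different groups correlated at −0.0241 to 0.229 in their deviations over 27 pairs, 14 over 0.1. All 9 pairs of replicate 3 lay at 0.163 to 0.229, those of replicate 2 at 0.066 to 0.175 and those of replicate 1 at −0.0241 to 0.0693, and 18 of 27 correlated best with their own number. This is a hint from the data, not the design, and the numbers were not used as pairs.

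The group counts of snRNA genes moved with the definition. Asking for all 3 libraries gave 5 (MYC in T), 6 (TR4 in T), 14 (MYC in B) and 21 (HA in B), and asking for 1 gave 23 with TR4 in T. Equal list length gave 9 (MYC in T), 5 (TR4 in T), 6 (TR4 in TB), 5 (MYC in B), 14 (HA in B), 23 (HA in TB) and 6 (MYC in TB), and overlap with the record gave 5 (MYC in T), 2 (TR4 in T), 5 (TR4 in TB), 14 (MYC in B) and 17 (MYC in TB). Major spliceosome genes in every TR4-directed group numbered 2 with all 3 libraries, 3 at equal length and 0 with overlap, and in every BCL11A-directed group 10, 3 and 12. Minor spliceosome genes in every TR4-directed group numbered 1 at equal length or with overlap, and in every BCL11A-directed group 1 under all 3 of those settings. With fewer peaks or a stricter definition counts fall by construction; otherwise the cause was not tested.

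Leaving out 1 library at a time gave 154 to 223 genes toward TR4, 2731 to 3420 toward BCL11A, 9 to 14 snRNA genes toward BCL11A, 2 pathway genes toward TR4 and 4 to 10 toward BCL11A. The 14 and the 10 were without replicate 3 of MYC in clone B, and 8 pathway genes passed without replicate 1 of TR4 in clone TB. The group counts, which then need both libraries left, ran from 5 to 19 (MYC in T), 6 to 14 (TR4 in T), 13 to 16 (TR4 in TB), 14 to 31 (MYC in B), 21 to 38 (HA in B), 32 to 39 (HA in TB) and 28 to 31 (MYC in TB), with the low value without replicate 1 or 2 for MYC in T, MYC in B and HA in B, and 7 and 6 for TR4 in T. Major spliceosome genes in every group ran from 3 to 9 (TR4-directed) and 12 to 26 (BCL11A-directed), minor ones from 2 to 3 and 1 to 3. List length limits what a short list can show, and the absence of a peak is not absence of binding.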
